A study of Mesocricetus auratus with 64 samples.

Results

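Small RNAs of 25 to 27 nt were examined in wild-type golden hamsters (Mesocricetus auratus, breed Syrian), in 1 library of germinal vesicle oocytes (WT-GV, replicate 2) and 1 library of embryos labelled 54PEA (WT-54PEA, replicate 2). The members are all sequences of 25, 26 or 27 bases in the deposited tables, chosen by length alone. They number 16901 of 105302 distinct sequences at GV and 8527 of 91227 at 54PEA, or 19022 of 144595 over both. The series compares wild-type animals with animals labelled Pld6 KO in oocytes, embryos and testis, and holds 32 small RNA samples. Tables of small RNA reads were used from these 2 wild-type samples, whose labels give no treatment or age. Genotype is not compared, and the rest of the small RNA samples are not analysed here. The labels do not spell out PEA. GV oocytes are immature oocytes that still hold the large nucleus of the growth phase. Per the labels' protocols, small RNA was ligated to adapters from single oocytes or embryos, amplified, and cut from a gel by size, so the lengths recovered depend on that slice. With 1 library per stage no difference below has a replicate check, and each compares these libraries rather than the stages.

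Most small RNAs of these lengths in animal germ cells are piRNAs, which guide PIWI proteins to transcripts of transposons and genes. A piRNA precursor is cut at its 5′ end and its 3′ end is then trimmed back to the edge of the PIWI protein, so that each PIWI protein carries a typical length. Primary piRNAs tend to begin with U, and piRNAs made in the ping-pong cycle, where one piRNA guides the cut that makes its partner, tend to carry A at the tenth base. Pld6 encodes a mitochondrial protein needed for piRNA making, and microRNAs are shorter. No sequence was aligned to a genome or to a microRNA catalogue here, so a member is called by its sequence and not by a gene, repeat or RNA class. Sequences are written with T, as in the tables, where the RNA has U.

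The 5 most read members of each library are shown first because they carry a visible share of the reads. Each runs 5′ to 3′, and the capitals mark the first and the tenth base.
GV rank 1: TtctttgacAcacggatcttcaatc
GV rank 2: TgccctctgAgagacttcttggtacc
GV rank 3, 54PEA rank 4: TaaacggagAtcaagctttattgtc
GV rank 4: TaatggactGggacaagtggtaaatct
GV rank 5: TatcagcacTgacattagaaacaagc
54PEA rank 1: GtatgttccGaagacaagtctgcagct
54PEA rank 2: AcacaagagAcggggacaagacagt
54PEA rank 3: AaggattgcCccacagcacaagtgagc
54PEA rank 5: AggattgccCcacagcacaagtgagc
All 5 at GV begin with T, whereas 4 of the 5 at 54PEA begin with A or G. Of these 4, ranks 3 and 5 differ only by 1 base at the start. Over all member reads at 54PEA, T was still the most frequent first base (56.4%).

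Levels are reads per 1000000 reads of a table (RPM), with 4305443 reads at GV and 4662344 at 54PEA. Intervals in brackets are 95% intervals and cover counting error only, since reads amplified by PCR are not independent molecules. GV rank 1 had 18643 reads at GV (4330.1 RPM) and 876 at 54PEA (188 RPM), 23.05-fold lower (21.5 to 24.7). GV rank 2 had 16942 and 1163 reads (3935 and 249 RPM), 15.8-fold lower (14.9 to 16.8). GV rank 3 stayed among the most read members of both libraries, with 8567 and 3007 reads (1989.8 and 645 RPM), 3.09-fold lower at 54PEA (2.96 to 3.22). GV rank 4 had 4462 and 653 reads, 7.40-fold lower (6.81 to 8.05), and GV rank 5 had 4389 and 145, 32.8-fold lower (27.8 to 38.9).

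Of the 5 most read members at 54PEA, rank 4 is the sequence just given as lower there, and the others were higher than at GV. The 5 members of each library were chosen by their reads in it, which favours a higher level there. The G-starting 27-base sequence of 54PEA rank 1 had 1209 reads at GV (281 RPM) and 4869 at 54PEA (1044 RPM), a ratio of 3.72 (3.49 to 3.96). The A-starting sequence of rank 2 had 530 and 3631 reads (123 and 779 RPM), a ratio of 6.33 (5.77 to 6.94). Ranks 3 and 5 are the same sequence but for 1 base: they share 26 bases and the 3′ end, and rank 5 starts 1 base further in. The longer form was at 2797 and 3346 reads (649.6 and 718 RPM), a ratio of 1.10 (1.05 to 1.16). The shorter form had 338 and 2917 reads (78.5 and 626 RPM), a ratio of 7.97 (7.12 to 8.95), so the forms stood close to each other at 54PEA and far apart at GV.

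As a class, 25 to 27 nt took 518244 reads at GV, 12.0% of the table (12.0 to 12.1, exact binomial), and 160519 reads at 54PEA, 3.44% (3.43 to 3.46). The class was thus 3.50-fold lower in RPM at 54PEA (3.48 to 3.52). As a share of distinct sequences the ratio of 54PEA over GV was 0.582 (0.567 to 0.598), against 0.286 by reads. The lengths inside it differed: 25 nt went from 4.76% to 1.11%, 4.29-fold lower, 26 nt from 3.72% to 1.17%, 3.19-fold lower, and 27 nt from 3.55% to 1.16%, 3.05-fold lower. Just outside the window, 24 nt held 8.88% and 3.93% of reads, and 28 nt held 5.63% and 0.590%. At GV the window is a trough between a peak at 23 nt (10.1%) and one at 29 nt (13.4%). At 54PEA the longer peak was nearly gone, with 28 to 30 nt down from 29.0% to 1.14% (25.5-fold lower), while 21 to 22 nt held 36.4% against 9.86% at GV. The values are shares of a whole, so less of these RNAs and more of the shorter ones cannot be told apart.

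Many sequences shared the class in both libraries. The 10 most read made up 13.8% of member reads at GV and 16.2% at 54PEA, and 50% of the reads lay in 297 and 264 sequences. A member had a median of 5 reads in each library, and 3311 at GV and 1047 at 54PEA were read once. With member reads at GV reduced to the 160519 of 54PEA, the expected number of distinct sequences there was 12436, still above the 8527 counted at 54PEA. Both libraries held 6406 of the members. These were 37.9% of the GV members and 85.0% of their reads, and 75.1% of the 54PEA members and 93.6% of their reads. Over all lengths there were 105302 distinct sequences at GV, 91227 at 54PEA and 144595 in either library. The shared percentages over all lengths were not computed, so this overlap is not shown to be particular to the members. A neighbour of the same length with 1 mismatch was found for 4.31% of the members at GV and 3.999% at 54PEA, and in 18 and 8 cases it had at least 50 times the reads.

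The first base was T in 84.2% of 25 to 27 nt reads at GV (84.1 to 84.3) and in 56.4% at 54PEA (56.2 to 56.7), a difference of −27.8 percentage points (−28.0 to −27.5). Counting each distinct sequence once, it was T in 65.4% and 54.1%, a difference of −11.3 points (−12.6 to −10.1). In its place A held 7.73% of reads at GV and 21.8% at 54PEA, C 4.01% and 11.3%, and G 4.07% and 10.5%. In RPM, T-starting members went from 101337 to 19425 RPM, 5.22-fold lower (5.18 to 5.25). Members starting with A went from 9308 to 7493 RPM, 1.24-fold lower, those with C were 1.24-fold and those with G 1.35-fold lower. Most of the lower level of the class at 54PEA therefore lay in its T-starting reads.

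All 3 lengths differed in this way. The share of T was 87.4% at GV and 59.0% at 54PEA for 25 nt, 85.2% and 57.5% for 26 nt, and 78.7% and 52.8% for 27 nt. At 28 nt T was the first base of 79.8% and 53.8% of reads. At 24 nt it was 82.7% and 86.4% by reads, but 68.3% and 62.4% with each sequence counted once, a difference of −5.97 points (−7.85 to −4.10), so the direction at 24 nt depends on the weighting. Sequences read in both libraries had T at 84.9% of reads at GV and at 58.3% at 54PEA. Among the members read only at 54PEA, T began 28.5% of the reads, against 79.9% among those read only at GV.

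The tenth base was A in 43.3% of 25 to 27 nt reads at GV (43.2 to 43.4) and in 39.6% at 54PEA (39.4 to 39.9), a difference of −3.65 points (−3.92 to −3.37) that turned to 1.17 points when each sequence counted once (−0.04 to 2.40) and to 3.73 points without the 10 most read members of each library. Just outside the window the tenth base was A in 40.9% and 38.8% of reads at 24 nt, and in 38.0% and 43.8% at 28 nt. At 21 to 22 nt it was A in 22.3% and 32.7%. A similar share of A was thus also found at the neighbouring lengths. Within the window, position 10 had the highest A share among positions 2 to 25 by reads in both libraries. The other positions ranged from 19.8% to 39.1% at GV and from 21.8% to 38.7% at 54PEA. By distinct sequences A at position 10 stood at 31.8% and 33.0%, and ranked 3 of 24 positions in both. Position 4 was highest, at 34.2% and 35.2%, so the lead of position 10 held by reads and not by sequences. Within the GV library A at the tenth base was about as frequent in reads starting with T (43.4%) as in the rest (42.8%), and at 54PEA it was 41.0% and 37.9%. A first base T together with A at the tenth base marked 36.5% of member reads at GV and 23.1% at 54PEA. Antisense partners were rare: 88 members at GV, with 0.313% of member reads, and 71 at 54PEA, with 0.521%, held 17 bases complementary to any other sequence of their table. An overlap of only 10 bases, as in the ping-pong cycle, is too short to be searched without a genome, so its frequency was not tested.

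The last base was most often C at GV (47.6% of reads, against 35.9% at 54PEA) and T at 54PEA (43.0%, against 32.1% at GV). G was the least frequent at 6.97% and 8.07%. By distinct sequences C ended 31.8% and 32.2% of members, and T ended 33.0% and 38.7%, so the lower share of C at 54PEA held by reads and not by sequences. At 25 nt C ended 53.3% of GV reads and 36.6% of 54PEA reads.

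Nearly all member reads belonged to a ladder of sequences with 1 common 5′ end. The same shares were not computed for other lengths, so ladders are not shown to be particular to this window. At GV 97.7% of the reads (14291 of 16901 sequences) had a shorter sequence in the table that is their exact start, and 79.2% (10710 sequences) were themselves the start of a longer one. At 54PEA the shares were 93.7% and 59.4%, a difference of −3.98 points (−4.11 to −3.86) for shorter and −19.8 points (−20.1 to −19.5) for longer forms. Counting only a shorter form with at least as many reads as the member, the first difference turned to 16.1 points. Among sequences with at least 10 reads the difference for longer forms was −35.7 points (−36.0 to −35.4). A longer form of 28 to 31 nt existed for 70.2% of member reads at GV and 41.4% at 54PEA. Distinct sequences of 28 to 30 nt themselves numbered 12011 at GV and 3444 at 54PEA. Neither a shorter nor a longer form was found for 1.56% and 5.13%. The 3′ end was shared with a sequence of another 5′ end for 94.8% of member reads at GV and 91.2% at 54PEA. A form that starts 1 base further in was found for 72.9% and 62.3%.

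The most read form of these ladders was shorter at 54PEA. At GV it was itself 25 to 27 nt for 59.5% of member reads, over 27 nt for 17.9%, 21 to 24 nt for 14.0% and under 21 nt for 8.57%. At 54PEA it was 25 to 27 nt for 49.6%, over 27 nt for 2.00%, 21 to 24 nt for 30.3% and under 21 nt for 18.1%. By the most read form, members at 54PEA were thus less often short forms of a longer sequence, and more often long forms of a shorter one. By presence alone, a shorter form was less frequent at 54PEA (93.7% of member reads, against 97.7% at GV).

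The ladders of GV ranks 1 to 3 show the pattern base by base, and are the 3 with most member reads at GV among sequences with the same first 18 bases. Capitals mark the bases after the first 18.
GV rank 1, 19 nt: ttctttgacacacggatcT
GV rank 1, 25 nt: ttctttgacacacggatcTTCAATC
GV rank 1, 30 nt: ttctttgacacacggatcTTCAATCTGAGT
GV rank 2, 23 nt: tgccctctgagagacttcTTGGT
GV rank 2, 26 nt: tgccctctgagagacttcTTGGTACC
GV rank 2, 28 nt: tgccctctgagagacttcTTGGTACCTG
GV rank 3, 22 nt: taaacggagatcaagcttTATT
GV rank 3, 24 nt: taaacggagatcaagcttTATTGT
GV rank 3, 25 nt: taaacggagatcaagcttTATTGTC
The 5′ end of rank 1 had separate peaks at GV, with 1648 reads at 19 nt, 18643 at 25 nt and 8166 at 30 nt, and only 147 to 245 reads at each length from 26 to 29 nt. At 54PEA the same end had 3120 reads at 19 nt, 1844 at 23 nt, 876 at 25 nt and 105 at 30 nt. Over all lengths it was 4.03-fold lower in RPM at 54PEA, while its 25-base form was 23.05-fold lower and its forms of 18 to 20 nt went from 578 to 1031 RPM.

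The end of rank 2 was read at GV mostly at 26 nt (16942 reads), 28 nt (6708) and 27 nt (4052), and at 54PEA mostly at 23 nt (4348), 19 nt (1888) and 20 nt (1309). Its total was 3.52-fold lower at 54PEA. The end of rank 3 was higher in total at 54PEA, from 2750 to 7623 RPM, a ratio of 2.77 (2.71 to 2.83), although its 25-base form was lower. The 25-base form held 72.3% of its reads at GV and 8.46% at 54PEA, where 24 nt (12358 reads) and 22 nt (8904) led, against 1087 and 22 at GV. Reads over 27 nt of this end were 68 at GV and 0 at 54PEA.

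The 3 leading ends of 54PEA had most of their 54PEA reads at 1 length in the window (69.8%, 88.5% and 99.1%). They were chosen by their member reads at 54PEA, which favours this. In the GV library the ends of GV ranks 1 to 3 had 58.9%, 46.0% and 72.3% at their leading length. The 54PEA ends are shown beside 1 end where the window holds a minor form. That end is rank 6 at 54PEA by member reads and was chosen after its values were seen.
54PEA rank 1, 21 nt: gtatgttccgaagacaagTCT
54PEA rank 1, 27 nt: gtatgttccgaagacaagTCTGCAGCT
54PEA rank 2, 25 nt: acacaagagacggggacaAGACAGT
54PEA rank 2, 28 nt: acacaagagacggggacaAGACAGTATT
54PEA rank 3, 27 nt: aaggattgccccacagcaCAAGTGAGC
54PEA end 6, 21 nt: tgaattcccttgagcaacATA
54PEA end 6, 27 nt: tgaattcccttgagcaacATACGTCTG
54PEA end 6, 31 nt: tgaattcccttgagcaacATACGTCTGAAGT
Rank 3 had 93.0% of the reads of its end at 27 nt at GV and 99.1% at 54PEA, with no read over 27 nt in either library. Rank 2 was read at GV mostly at 28 nt (722 reads) and 25 nt (530), and at 54PEA at 25 nt (3631 reads, 88.5% of the end) with 51 reads at 28 nt. Rank 1 had another length at 54PEA, 21 nt, with 18 reads at GV and 1792 at 54PEA. End 6 had 63.96% of its reads at 28 to 31 nt at GV. At 54PEA it had 77.1% at 21 to 22 nt, where the 21-base form went from 78 to 26279 reads, and its 27-base form went from 174 to 454 RPM.

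Over the whole class, 651 5′ ends with at least 100 reads at GV had their most read length at 25 to 27 nt there, 252 of them at 25, 183 at 26 and 216 at 27 nt. They were chosen by their GV lengths, so the GV profile describes the choice. A median of 52.6% of the reads of such an end lay at its leading length, 215 ends (33.0%) had at least 10% of their reads at 28 to 31 nt, and 193 (29.6%) had at least 10% at 18 to 20 nt. Summed, these ends went from 93907 RPM at GV to 67604 RPM at 54PEA, while their 25 to 27 nt reads went from 60200 to 13761 RPM and their 28 to 31 nt reads from 11826 to 451 RPM. Their reads of 18 to 20 nt went from 8933 to 20370.4 RPM and those of 21 to 22 nt from 3661 to 22630.2 RPM. Without the 10 ends most read at 54PEA the total went from 69896 to 40945 RPM and the 25 to 27 nt reads from 45943 to 10073 RPM.

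Of the 651 ends, 572 had at least 20 reads at 54PEA. Their leading length there was 25 to 27 nt for 202 (35.3%), 18 to 20 nt for 176 (30.8%), 21 to 22 nt for 136 (23.8%) and 23 to 24 nt for 56 (9.79%). The median share of reads in the window was 63.8% at GV and 21.9% at 54PEA over these 572 ends. It was lower at 54PEA for 472 of them, which the choice by GV lengths favours. A higher total RPM at 54PEA was found for 149.

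Choosing the ends at 54PEA instead gave 180 with a leading length of 25 to 27 nt, 106 of them (58.9%) starting with T against 548 of 651 (84.2%) for the GV choice. Of these, 101 were also among the 651, 56.1% of the 54PEA choice and 15.5% of the GV choice. At GV 172 of the 180 had at least 20 reads, and 123 (71.5%) led at 25 to 27 nt and 33 (19.2%) above. Their 25 to 27 nt reads went from 18010 RPM at GV to 11262 RPM at 54PEA, and their 28 to 31 nt reads from 13057 to 315 RPM. Over these 172 ends the median share in the window was 65.2% at GV and 68.1% at 54PEA. It was higher at GV for 72 of them, where the choice favours a higher share at 54PEA. The ends that led with these lengths at 54PEA thus mostly did so at GV too.

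Sequence by sequence, 4279 of the 19022 members had at least 20 reads over both libraries and were compared. The median log2 ratio of 54PEA over GV was −2.40 for them and −0.02 for all 37843 sequences of any length with 20 reads. At least 4-fold higher at GV were 2368 members (55.3%), against a background of 32.9% of all sequences of any length compared. At least 4-fold higher at 54PEA were 148 members (3.46%), against a background of 28.7%. With at least 50 reads over both libraries the counts were 1195 and 47. At a fold limit of 2, 3041 members were higher at GV and 329 at 54PEA. The background over all sequences was not computed at these settings, so these counts have no share to be set against. A member that was read in 1 library only passed the minimum through that library: 798 of the 4279 had no read at 54PEA and 24 none at GV, and these were set to a floor of 3 reads (0.697 RPM at GV, 0.643 at 54PEA). Of all 37843 sequences compared, 5828 had no read at 54PEA and 3182 none at GV.

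The first base divided these counts too. Of 3298 T-starting members compared, 63.4% were at least 4-fold higher at GV and 1.15% at 54PEA (median log2 −2.83). For 411 starting with A the shares were 24.8% and 11.9% (median −0.38), for 280 with C 25.7% and 11.4% (median −0.26), and for 290 with G 35.2% and 10.0% (median −0.83). The background over all sequences of any length was 32.9% higher at GV and 28.7% higher at 54PEA, and was not computed by first base. For the share higher at GV, A and C lay below this background and G near it. By length, 62.9% of 25 nt, 48.8% of 26 nt and 53.3% of 27 nt members were at least 4-fold higher at GV, against 64.7% at 24 nt and 81.5% at 28 nt.

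Members from the extremes of the ratio, among 391 with at least 50 RPM in a library, are shown because they differ strongly between these libraries. With the floor of 3 reads for a library without reads, a member with 1 read can rank above a member with none. The GV set is therefore not shown to be the most extreme. Capitals mark the first and the tenth base.
Higher at GV, 1: TcctgaagtCatgagtttgagagctta
Higher at GV, 2: TtgacaaacGtaagtgctgaagcct
Higher at GV, 3: TgtaaacggAgatcaagctttattgt
Higher at GV, 4: TtctagagaActcgattggctaacctg
Higher at 54PEA, 1: TgaggataaAgtgatcacatgagca
Higher at 54PEA, 2: ActgaggatAaagtgatcacatgagc
Higher at 54PEA, 3: TgaggataaAgtgatcacatgagcagt
Higher at 54PEA, 4: TggaatgcaTattcagtgtcgggtt
Higher at 54PEA, 5: CaagaaaatAtcctataggcctgcct
Sequence 1 of the GV set had 2170 reads at GV and 5 at 54PEA, 470.0-fold lower (201 to 1449), and its whole end 2359 and 119. Sequences 2 to 4 had 391, 311 and 282 reads at GV and 1 each at 54PEA, where the intervals of the ratio reach up to 0.0132, 0.0167 and 0.0184. Sequence 3 shares 24 bases with GV rank 3 and starts 2 bases before it, and its end led at 27 nt at GV.

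The 3 highest at 54PEA are overlapping sequences, with 24 or 25 bases in common. Whether they come from 1 RNA was not tested. They had 99.7, 77.4 and 68.8 RPM at 54PEA and no read at GV, at least 143-fold, 111-fold and 98.8-fold higher against the floor of 3 reads. The end of sequences 1 and 3 had 2073 reads at 54PEA over all lengths, most often at 21 nt, and 6 at GV. Sequence 4 had 15 and 241 reads, a ratio of 14.8 (8.82 to 26.9), and sequence 5 had 27 and 252, a ratio of 8.62 (5.78 to 13.3).

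Among the 61 members with at least 1000 reads in a library, 2 pairs of equal length differed at 4 positions or fewer, a search added after the data were seen. They are shown with the differing bases in capitals, positions being counted from 1 at the 5′ end and the first base of a change being that of the first sequence of the pair.
Pair 1, first: tgcCctctgagagActtcTtggtacc
Pair 1, second: tgcTctctgagagTcttcCtggtacc
Pair 2, first: taaaCggagatcAagctttAttgtc
Pair 2, second: taaaTggagatcGagctttTttgtc
Pair 1 differs by C4T, A14T and T19C, and its members had 16942 and 3222 reads at GV and 1163 and 452 at 54PEA, 15.8-fold and 7.72-fold lower. Pair 2 differs by C5T, A13G and A20T. Its members had 8567 and 3814 reads at GV but 3007 and 102 at 54PEA, 3.09-fold and 40.5-fold lower, so near copies of 1 length and 1 first base differed in their ratio between these libraries.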

How the data were processed

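Small RNA reads were used from 1 wild-type GV oocyte library and 1 wild-type 54PEA embryo library of the 64 samples. The authors deposited, for each, distinct sequences with whole-number read counts. Whether these are all trimmed reads or a filtered subset is not given in the sources used here, so percentages and RPM are of the reads in the table, not of the library. The tables hold 17 to 45 nt. Per the submitters' processing notes, which give no roles, the series used Trim Galore, TopHat, STAR 2.7.1a and featureCounts; the aligner and build behind these tables are not given in the sources used here. No adapter trimming, alignment or filter was added here, and rows that stem from fragments of other RNAs were not removed.

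Counts were scaled to 1000000 reads of each table. Sequences were compared as exact strings with Python 3.11.15 and SciPy 1.17.1: a ladder holds sequences where one is the exact start of the other, or, for whole 5′ ends, those with the same first 18 bases. Shares have exact (Clopper-Pearson) 95% intervals, ratios exact conditional intervals, and differences of shares Newcombe intervals. There is no test, as there is 1 library per stage. The functions were tested on simulated data. Named sequences are the 5 most read per library, the 5 highest and 5 lowest ratios with at least 50 RPM, and the 3 leading 5′ ends per library; a microRNA part of the rule could not be applied. 1 sequence that the rule names is not reported here. The 5′ end classes, near copies and ranks 4 to 6 at 54PEA were added after values were seen, and the members and rules were chosen with earlier results of these data known. Alternatives changed weighting, minimum reads, window, total, end rule and fold limit.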

Additional observations from a re-analysis of the deposited data

How the results depend on the processing

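Here a ratio or a difference counts as moved when it leaves the counting interval of the reported one. Counts of members have no such interval. No paired analysis was possible because there is 1 library per stage and no test, and for the same reason no replicate could be left out. The ratio of the class, 54PEA over GV, was 0.286 as reported, and 0.582 with each distinct sequence counted once, 0.262 with at least 10 reads, 0.275 without the 10 most read members, 0.321 for 26 to 27 nt, 0.269 for 25 to 26 nt and 0.265 against reads of 18 to 30 nt outside the window. The T difference at the first base was −11.3 points by distinct sequences, −28.5 with at least 10 reads, −22.0 without the most read 10, −26.9 for 26 to 27 nt and −28.2 for 25 to 26 nt. The A difference at the tenth base reversed to 1.17 points by distinct sequences and to 3.73 without the most read 10, and was −4.44 for 26 to 27 nt and −4.51 for 25 to 26 nt. The difference in reads with a longer form was −25.1 by distinct sequences, −35.7 with at least 10 reads, −22.9 for 26 to 27 nt, −18.5 for 25 to 26 nt and −20.1 counting only longer forms with at least as many reads. With a shorter form it was −3.76 with at least 10 reads, −4.83 without the most read 10, −4.13 for 26 to 27 nt, −3.73 for 25 to 26 nt and −4.41 by equal first 18 bases, and it reversed to 16.1 counting only shorter forms with at least as many reads. Members at least 4-fold higher at GV numbered 1400 for 26 to 27 nt and 1195 with at least 50 reads, fewer by construction. At 26 nt they were 663 of 1359 compared (48.8%) and at 27 nt 737 of 1382 (53.3%), against a background of 32.9% of all sequences. At a fold limit of 2, 3041 were higher at GV and 329 at 54PEA, and with at least 50 reads 47 were higher at 54PEA. The background over all sequences was computed only at a fold limit of 4 and 20 reads. Depth limits single sequences: a member with no read in a table is at or below 0.697 RPM at GV and 0.643 RPM at 54PEA, and with 1 library per stage the spread between oocytes or embryos is unknown.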
